A study of Mus musculus with 14 samples.

Results

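The group described here is 10 genes chosen by name, with earlier results of these data known. The genes are the chaperones Hspa1a, Hspa1b, Hspa8, Hsph1, Dnajb1, Hspb1, Hsp90aa1, Hsp90ab1 and Hspd1, and the transcription factor Hsf1. They were taken by symbol from the 55450 gene identifiers counted in 14 RNA-seq libraries of mouse long-term hematopoietic stem cells (LT-HSCs), the bone marrow cells that can rebuild all blood lineages over the long term. Each of the 10 symbols matched 1 identifier and all 10 passed the filter on low counts, Hspa1a through pre-transplant libraries alone. A heading of cytosolic heat shock chaperones covers 8 of them, because Hspd1 encodes the mitochondrial chaperonin HSP60 and Hsf1 encodes the regulator of the heat shock response.

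All donor cells came from female C57BL/6 mice older than 24 months. Selp high-derived (3 libraries) and Selp low-derived (3 libraries) cells were descendants of 1000 Selp high or Selp low LT-HSCs given to lethally irradiated recipients aged 10 to 16 weeks. They were sorted 16 weeks later as CD45.2-positive LT-HSCs, with no gate on Selp. Selp high (4 libraries) and Selp low (4 libraries) cells were sorted straight from 4 old mice by surface P-selectin, the adhesion receptor encoded by Selp. In all 4 groups the sort took cells without lineage markers or CD48 and with Sca-1, c-Kit and CD150, and 5000 cells went into each library. Stage (after or before transplantation) is therefore tied to recipient, irradiation, the CD45.2 gate, the Selp gate and time of collection, which cannot be told apart in this design. The labels do not say whether recipients were pooled or each gave 1 post-transplant library, so p-values measure the spread between these libraries.

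Heat shock proteins keep other proteins folded. HSP70 chaperones (Hspa genes) bind exposed hydrophobic stretches in cycles driven by ATP, J-domain proteins such as Dnajb1 bring them clients and start ATP hydrolysis, HSP110 (Hsph1) resets the cycle by exchanging the nucleotide, and HSP90 completes the folding of kinases and receptors. Small heat shock proteins such as Hspb1 hold unfolded proteins without ATP. When proteins misfold, HSF1 trimers bind heat shock elements, alternating GAA and TTC units near the start of stress-inducible genes. Hspa1a, Hspa1b, Dnajb1, Hspb1 and Hsph1 are classic inducible genes, while Hspa8 and Hsp90ab1 are the constitutive forms. HSCs are known to depend on low rates of protein synthesis and on proteome quality control.

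The promoters of 6 of the 10 members are given in the RefSeq table of build GRCm38.p6, as windows of 300 bases from 250 before to 50 after an annotated start. Hspa8, Hsp90aa1, Hsp90ab1 and Hsf1 were not matched in it. The windows below are shown because they set the genes that fell after transplantation (Hspa1a, Hspa1b, Hspb1 and Dnajb1) beside inducible or mitochondrial members that did not fall. They read 5′ to 3′ along the gene, and capitals mark heat shock elements of at least 2 units, meaning GAA and TTC in either order with 2 bases between.
Hspa1a: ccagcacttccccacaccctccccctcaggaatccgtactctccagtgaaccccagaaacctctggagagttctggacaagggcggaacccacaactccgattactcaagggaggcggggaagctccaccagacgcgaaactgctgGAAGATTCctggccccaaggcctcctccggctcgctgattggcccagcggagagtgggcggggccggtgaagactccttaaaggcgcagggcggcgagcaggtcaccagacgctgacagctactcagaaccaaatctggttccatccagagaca
Hspa1b: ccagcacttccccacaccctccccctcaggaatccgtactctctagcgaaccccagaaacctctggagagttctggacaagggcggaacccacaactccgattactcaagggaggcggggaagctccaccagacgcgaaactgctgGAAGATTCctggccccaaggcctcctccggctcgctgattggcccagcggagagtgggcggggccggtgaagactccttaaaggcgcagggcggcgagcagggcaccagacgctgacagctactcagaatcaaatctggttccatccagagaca
Hspb1: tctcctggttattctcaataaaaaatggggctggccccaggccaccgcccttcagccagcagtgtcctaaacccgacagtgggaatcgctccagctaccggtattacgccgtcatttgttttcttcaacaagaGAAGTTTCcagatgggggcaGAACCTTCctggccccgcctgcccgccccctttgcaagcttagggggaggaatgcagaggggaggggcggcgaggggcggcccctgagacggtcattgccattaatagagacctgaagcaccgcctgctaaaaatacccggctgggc
Dnajb1, first start: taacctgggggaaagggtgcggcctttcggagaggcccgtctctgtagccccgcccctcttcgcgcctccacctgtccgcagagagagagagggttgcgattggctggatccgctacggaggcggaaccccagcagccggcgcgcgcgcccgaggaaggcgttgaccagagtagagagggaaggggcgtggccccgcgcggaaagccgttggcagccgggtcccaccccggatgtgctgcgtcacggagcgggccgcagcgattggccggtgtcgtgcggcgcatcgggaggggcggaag
Hsph1, first start: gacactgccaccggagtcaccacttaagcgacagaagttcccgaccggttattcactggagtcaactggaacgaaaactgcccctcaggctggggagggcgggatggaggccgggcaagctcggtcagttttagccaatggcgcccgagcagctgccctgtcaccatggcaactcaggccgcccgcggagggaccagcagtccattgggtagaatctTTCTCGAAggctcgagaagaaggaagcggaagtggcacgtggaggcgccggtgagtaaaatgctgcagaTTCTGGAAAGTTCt
Hspd1, second start: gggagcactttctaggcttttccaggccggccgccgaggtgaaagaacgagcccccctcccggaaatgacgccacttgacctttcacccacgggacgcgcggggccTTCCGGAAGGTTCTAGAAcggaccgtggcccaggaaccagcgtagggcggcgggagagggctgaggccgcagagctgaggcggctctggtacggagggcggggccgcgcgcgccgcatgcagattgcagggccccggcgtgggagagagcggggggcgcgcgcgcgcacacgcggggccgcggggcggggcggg
The Hspa1a window lies at chr17:34972107-34972406 and the Hspa1b window at chr17:34959189-34959488, both on the minus strand. The Hspb1 window is at chr5:135887669-135887968 and the Dnajb1 window at chr8:83607925-83608224, both on the plus strand. The Hsph1 window is at chr5:149636287-149636586 and the second Hspd1 window at chr1:55087883-55088182, both on the minus strand.

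Hspa1a and Hspa1b, a tandem pair of HSP70 genes, had windows that differed at 4 of 300 bases (98.7% identical). With Hspa1a as the reference and positions counted from 1 at the 5′ end of the window, the differences were C44T, T47C, T249G and C276T. None of these positions lies in the single 2-unit element that begins 104 bases before either start. Hspb1 had 2 such elements, which begin 117 and 97 bases before its start. Neither Dnajb1 window held one, which says only that these letters are not in those 300 bases.

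Elements of 3 units were found in windows of Hsph1 and Hspd1. Only exact GAA and TTC units were counted and 4 members had no window. A link between these elements and the changes after transplantation was not tested. Hsph1, the HSP110 gene, had 3 matches of 2 units in its first window, and the overlapping pair that begins 37 and 42 bases after the start forms 1 element of 3 units. The second annotated Hspd1 start had 3 overlapping 2-unit matches that make up 2 overlapping 3-unit elements, beginning 144 and 139 bases before it, and the first Hspd1 window held none. Over all 32851 windows in the table, searched on both strands with overlaps counted, 15.1% held a 2-unit and 0.603% a 3-unit element. None of the members' windows held TATAAA, which 13.6% of all windows did. CCAAT was in 37.4% and GGGCGG in 35.7% of all windows, and Hspa1a and Hspa1b each held 1 CCAAT box and 3 GC boxes.

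**Figure D1:**
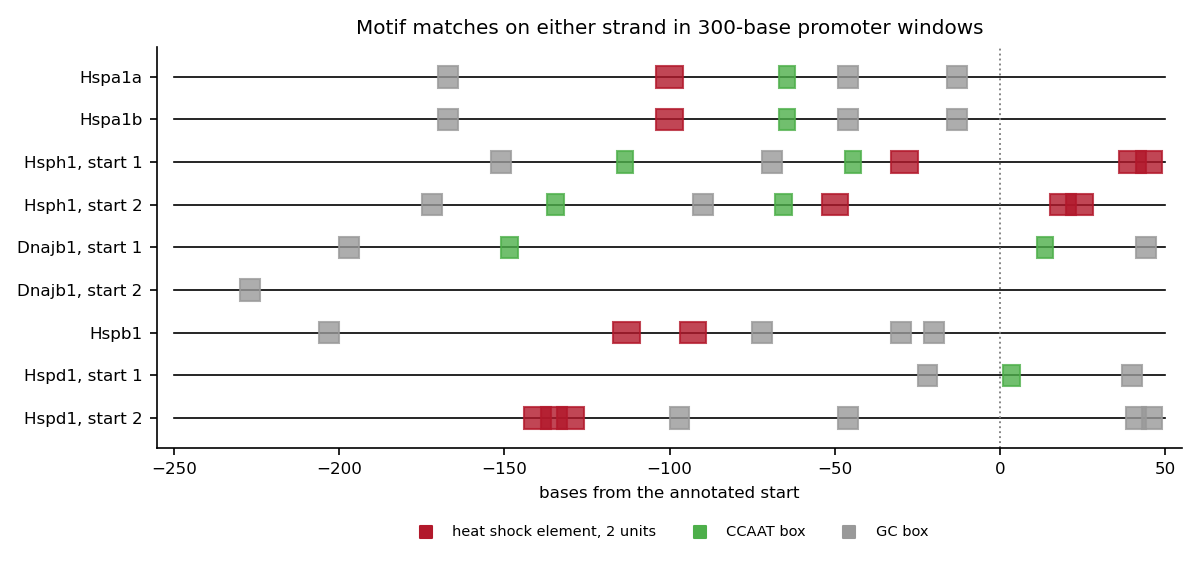
Positions of heat shock elements of 2 units (red), CCAAT boxes (green) and GC boxes (grey) on either strand in the members' promoter windows of 300 bases, with the distance in bases from the annotated start on the x axis and one line per annotated start. Hspa1a and Hspa1b share their layout, with 1 heat shock element each, Hspb1 holds 2, and both Dnajb1 lines hold none.

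The depth was 22374794 to 38216775 gene-assigned reads per library, and all 12 LT-HSC marker genes were detected in each of the 14 libraries. As the sort gene, Selp averaged 301 ± 15.7 CPM (counts scaled to library size) in Selp high-derived, 269 ± 23.7 CPM in Selp low-derived (SD, n = 3 each), and, before transplantation, 701 ± 73.4 CPM in Selp high libraries against 566 ± 96.7 CPM in Selp low ones (SD, n = 4 each). Replicate numbers before transplantation were taken as mice, and neutrophil markers stood highest in both libraries of mouse 4, at 19800 CPM (Selp high) and 15100 CPM (Selp low) summed over 12 genes, and in Selp low-derived replicate 2, at 12500 CPM. The results below are also given without those 3 libraries where that changes them.

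Levels of the 10 genes spanned more than 3 orders of magnitude per exon length. Hsp90ab1, the constitutive HSP90, was the most abundant at 699 ± 71.8 CPM per kb of exon (SD, n = 14), and Hspa8, the constitutive HSP70 (also called HSC70), was next at 258 ± 50.5 CPM per kb. The ranges of those neighbours did not overlap over the libraries, with 592 to 850 CPM per kb for Hsp90ab1 and 203 to 360 CPM per kb for Hspa8. Below them came Dnajb1 at 103 ± 58.6, Hsp90aa1 at 99.3 ± 19.3 and Hspd1 at 78.3 ± 12.9 CPM per kb, whose ranges overlapped with each other. Dnajb1 was above Hsp90aa1 in 8 of 14 libraries. That order is uncertain, because 47.5% of the 50-base words in Hsp90aa1 transcripts, 42.1% in Hspd1 and 39.4% in Hspa8 also occur in other genes, against 0.412% in Dnajb1 and 3.44% in Hsp90ab1, and reads that map to several places are left out of the counts. Hsph1 at 17.4 ± 2.50 CPM per kb was apart from Hspd1 and stood above Hsf1, at 12.4 ± 1.12 CPM per kb, in 14 of 14 libraries although their ranges overlap. Hspb1 at 4.07 ± 3.40, Hspa1b at 1.00 ± 0.592 and Hspa1a at 0.216 ± 0.239 CPM per kb were the scarcest. The inducible HSP70s were thus present at a small share of the level of the constitutive Hspa8 in every library.

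**Figure D2:**
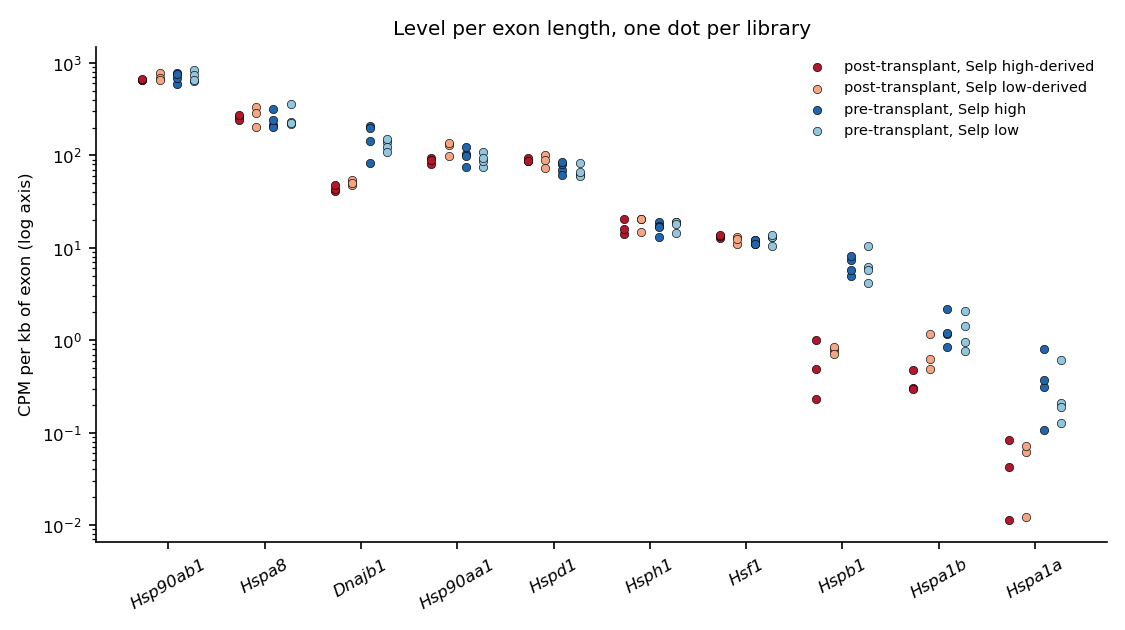
Level of each member as CPM per kb of exon (log axis), one dot per library, coloured by group, with members ordered by their mean over 14 libraries. Hsp90ab1 leads at 592 to 850 CPM per kb and Hspa1a is lowest at 0.0114 to 0.812 CPM per kb. Dnajb1 and Hspb1 split by stage without overlap, and so does Hspa1a, which passed the filter through pre-transplant libraries alone.

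Comparing the 6 post-transplant with the 8 pre-transplant libraries asks how the genes stood in aged stem cells after 16 weeks in a young recipient. Hspb1, Dnajb1 and Hspa1b fell, with fitted folds of 0.101, 0.329 and 0.394. Hspa1a was also lower (0.143), but it reached the filter's level in 6 of 8 pre-transplant and 0 of 6 post-transplant libraries, so a gene entering the test this way had to differ and its call is no support. Hspd1 was called slightly higher (1.25-fold), a call that was lost with mice as the samples, and Hspa8, Hsp90aa1, Hsp90ab1, Hsph1 and Hsf1 did not pass the test. By edgeR's quasi-likelihood test (adjusted p under 0.05) 4 of the 9 members that passed the filter in both stages were called, 1 higher and 3 lower. Of all 16878 genes 27.4% were called, 12.9% as higher and 14.6% as lower. The shares of all genes, here and by input, include genes that passed the filter through pre-transplant libraries alone, as Hspa1a did. Members were chosen with earlier results of these data known, so these counts are descriptions. The 8 pre-transplant libraries are pairs from 4 mice and were entered separately. With both libraries of each mouse summed, so that 4 mice stood against 6 libraries, the log2 changes were -3.33 for Hspb1 (adjusted p = 0.000142), -1.63 for Dnajb1 (3.31e-05), -1.37 for Hspa1b (0.015) and -2.84 for Hspa1a (0.00895), and Hspd1 did not pass (0.30, adjusted p = 0.0753). In bulk libraries, fewer cells of a type and less RNA per cell cannot be told apart.

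Hspb1 (ENSMUSG00000004951.10, chromosome 5, 135887919 to 135889563, plus strand, GRCm38) encodes the small heat shock protein HSP25, which binds unfolded proteins and actin. It had 1.03, 0.504 and 0.236 CPM in Selp high-derived and 0.806, 0.867 and 0.729 CPM in Selp low-derived libraries, against 7.69, 5.08, 8.47 and 5.86 CPM in Selp high libraries and 10.8, 6.37, 5.98 and 4.33 CPM in Selp low libraries. Every post-transplant library was below every pre-transplant one. These values rest on 7 to 29 reads per library after and 125 to 320 reads before transplantation, and 5 of 6 post-transplant libraries reached the filter's level. The means were 0.696 ± 0.284 CPM after (SD, n = 6) and 6.82 ± 2.08 CPM before transplantation (SD, n = 8), a log2 change of -3.30 ± 0.32 (SE, adjusted p = 1.03e-05). Of all genes, 5.47% were lower after transplantation with no overlap, and of the members Hspb1 and Dnajb1 were. Hspa1a was too, which is no support because it passed the filter through pre-transplant libraries alone.

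Dnajb1 (ENSMUSG00000005483.10, chromosome 8, 83608193 to 83612653, plus strand) encodes HSP40, the main stress-inducible J-domain partner of HSP70. It had 131, 138 and 154 CPM in Selp high-derived and 172, 154 and 162 CPM in Selp low-derived libraries, against 461, 266, 668 and 627 CPM in Selp high libraries and 443, 398, 488 and 350 CPM in Selp low libraries. The post-transplant values lay in a narrow band under the lowest pre-transplant library, Selp high replicate 2. The means were 152 ± 15.1 CPM after (SD, n = 6) and 463 ± 134 CPM before (SD, n = 8), a log2 change of -1.60 ± 0.17 (SE, adjusted p = 1.91e-05). Of the 5 members with the highest level per length, Dnajb1 was the only one that fell.

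Hspa1a (ENSMUSG00000091971.3, chromosome 17, 34969190 to 34972156, minus strand) and Hspa1b (ENSMUSG00000090877.3, chromosome 17, 34956436 to 34959238, minus strand) are intronless genes for near-identical inducible HSP70 proteins. Hspa1a had 0.249, 0.126 and 0.0337 CPM in Selp high-derived and 0.183, 0.0361 and 0.215 CPM in Selp low-derived libraries, against 2.41, 0.935, 1.10 and 0.317 CPM in Selp high libraries and 1.82, 0.375, 0.617 and 0.554 CPM in Selp low libraries. These values rest on 1 to 7 reads per library after and 8 to 63 reads before transplantation, and the stages did not overlap. The means were 0.140 ± 0.0912 CPM after (SD, n = 6) and 1.02 ± 0.744 CPM before (SD, n = 8), a log2 change of -2.81 ± 0.62 (SE, adjusted p = 0.00406). Hspa1b had 0.853, 1.35 and 0.842 CPM in Selp high-derived and 1.35, 1.73 and 3.30 CPM in Selp low-derived libraries, against 6.12, 2.39, 3.27 and 3.37 CPM in Selp high libraries and 5.77, 2.7, 2.12 and 4.05 CPM in Selp low libraries. Selp low-derived replicate 3, at 3.30 CPM, lay among the pre-transplant values, so the stages overlapped. The Hspa1b means were 1.57 ± 0.914 CPM after and 3.72 ± 1.5 CPM before, a log2 change of -1.34 ± 0.32 (SE, adjusted p = 0.00609).

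The split of reads between the HSP70 pair is uncertain. Of the 50-base words in the Hspa1a transcript, 58.8% also occur in Hspa1b, and the files count reads that map to several places apart from any gene. Hspa1a exons also overlap the antisense gene Gm20481 over 564 bases (19.0% of their length). Without strand Hspa1a had 250 reads over all libraries and Gm20481 none. The counts by strand gave Hspa1a 213 and 243 reads and Gm20481 112 and 92, although sums over all genes on the strands had a ratio of 0.989 to 0.999. Hspa1b, with no such overlap, had 1091 reads without strand and 533 and 558 by strand. Reads in the stretch shared with Gm20481 were thus left out of the Hspa1a counts used here, also those set against the filter. With the counts of both genes summed, the log2 change was -1.55 ± 0.33 (SE, adjusted p = 0.00295). Hspb1 shares 48.8% of its 50-base words with the pseudogene Hsp25-ps1, so reads from those stretches can also map to several places.

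The constitutive and HSP90 members had overlapping levels at both stages, and none passed the test. Hspa8 (chromosome 9, 40800984 to 40810087, plus strand) ran from 871 to 1450 CPM after (median 1140) and from 883 to 1550 CPM before transplantation (median 975), a log2 change of 0.09 ± 0.15 with a 95% interval of -0.22 to 0.41. Hsp90ab1 (chromosome 17, 45567775 to 45573271, minus strand) ran from 1950 to 2360 CPM after (median 1980) and from 1770 to 2550 CPM before (median 2120), and its log2 change of -0.06 ± 0.09 had an interval of -0.25 to 0.13. Hsp90aa1 (chromosome 12, 110690605 to 110702728, minus strand), the more inducible HSP90, ran from 314 to 532 CPM after (median 378) and from 291 to 488 CPM before (median 379). Its log2 change was 0.11 ± 0.12, with an interval of -0.15 to 0.37. The stages overlapped for each of these genes, although the 2 highest Hsp90aa1 libraries (532 and 509 CPM) were both Selp low-derived and the 2 lowest (291 CPM each) both pre-transplant. Intervals of this width do not include the fall seen for Hspb1, Dnajb1 or Hspa1b.

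Hsph1 (chromosome 5, 149614287 to 149636376, minus strand), the HSP110 that exchanges nucleotide on HSP70, had 103 to 150 CPM after (median 131) and 94.6 to 137 CPM before transplantation (median 129). Its log2 change was 0.06 ± 0.12, with an interval of -0.19 to 0.30. The stages overlapped for Hsph1. Hsf1 (chromosome 15, 76477422 to 76501913, plus strand) had 78.5 to 98.8 CPM after (median 92.3) and 74.3 to 97.8 CPM before (median 86.4), a log2 change of 0.08 ± 0.08 with an interval of -0.09 to 0.24. A difference in the regulator's RNA between stages was not detectable. HSF1 is controlled mainly at the protein level, which was not measured.

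Hspd1 (ENSMUSG00000025980.14, chromosome 1, 55077835 to 55088243, minus strand), the mitochondrial HSP60, had 227, 245 and 233 CPM in Selp high-derived and 264, 195 and 234 CPM in Selp low-derived libraries, against 184, 161, 213 and 223 CPM in Selp high libraries and 163, 158, 175 and 219 CPM in Selp low libraries. Of the 6 post-transplant libraries, 5 were above every pre-transplant one, and Selp low-derived replicate 2 was below Selp high replicates 3 and 4 and Selp low replicate 4. The log2 change was 0.32 ± 0.10 (SE, adjusted p = 0.0300). This call was kept without Selp low replicate 4, Selp high replicate 3 or 4, or Selp low-derived replicate 2, and was lost without any 1 of the other 10 libraries (adjusted p up to 0.0900) and without the filter on low counts (0.0524), as it was with both libraries of a mouse summed. Without both mouse 4 libraries it was 0.41 (adjusted p = 0.00417). Its head-to-head neighbour Hspe1, which encodes the HSP10 cap of the same chaperonin, was at 67.5 ± 9.62 CPM after (SD, n = 6) and 48.2 ± 10.7 CPM before (SD, n = 8), a log2 change of 0.48 ± 0.15 (adjusted p = 0.0264). Hspe1 was not examined with both libraries of a mouse summed.

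**Figure D3:**
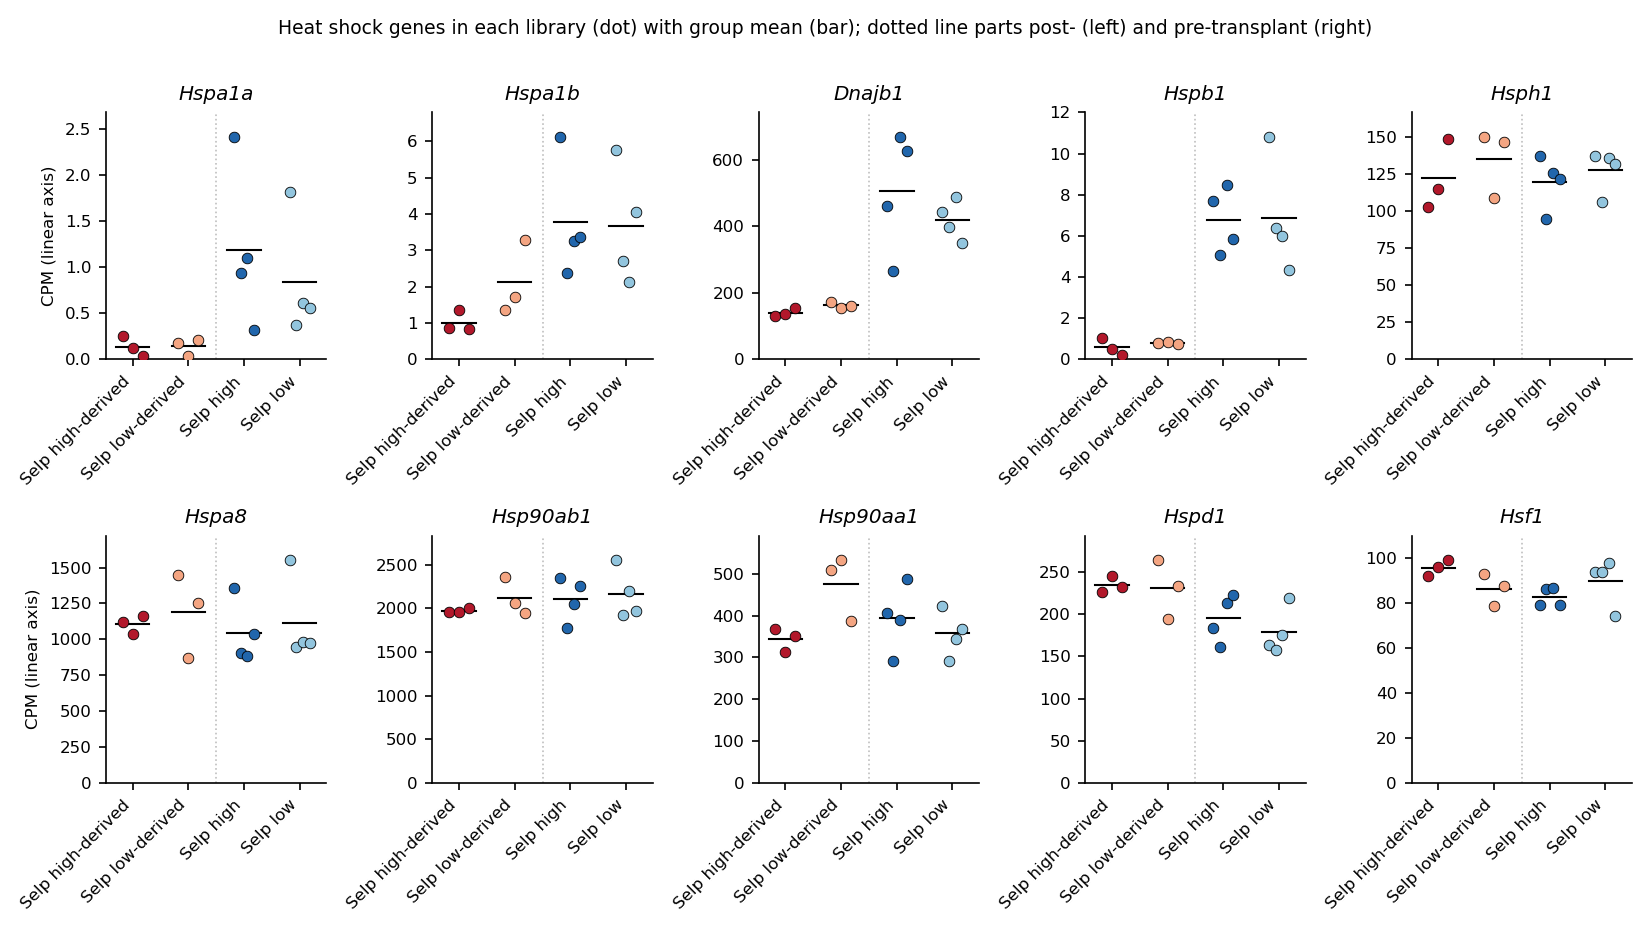
CPM of each member in every library (dots) with the group mean (bar), on linear axes from 0 scaled to each gene; groups run from Selp high-derived and Selp low-derived on the left of the dotted line to Selp high and Selp low on the right. Dnajb1 and Hspb1 show no overlap between the stages, nor does Hspa1a, which passed the filter through pre-transplant libraries alone. Hspa8, Hsp90ab1, Hsp90aa1, Hsph1 and Hsf1 overlap.

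Taken by input, Hspb1 and Dnajb1 fell after transplantation of either kind of cell. These contrasts use the same libraries as the comparison of stages and are not further evidence for it. In Selp high-derived against Selp high cells, 3 of the 9 members that passed the filter in both stages were called, all lower, where 15.2% of all genes were called and 7.62% as lower. The log2 changes were -3.51 ± 0.46 for Hspb1 (SE, adjusted p = 0.000264), -1.84 ± 0.24 for Dnajb1 (0.000279), -1.90 ± 0.46 for Hspa1b (0.0125). Hspa1a, at -3.09 ± 0.88, was called as well (0.0292). Hspb1, Dnajb1 and Hspa1b were below Selp high in every library, as were 14.7% of all genes. Hspa1a was too, but it passed the filter through pre-transplant libraries alone, so its call and lack of overlap are no support. Hspd1 and Hsf1 were above it without overlap, as were 14.5% of all genes, at 0.26 ± 0.14 and 0.21 ± 0.11, and were not called (adjusted p = 0.240 and 0.211). The Hspa1a call was lost without Selp high replicate 1 or 3, without Selp high-derived replicate 2 or 3 (adjusted p up to 0.115), and by limma voom (0.0772). The Hspa1b call was lost without Selp high-derived replicate 1 or 3 (up to 0.0608).

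In Selp low-derived against Selp low cells, 2 of the 9 members that passed the filter in both stages were called, both lower, where 11.5% of all genes were called and 6.46% as lower. These were Hspb1, with a log2 change of -3.09 ± 0.45 (SE, adjusted p = 0.00108), and Dnajb1, with -1.37 ± 0.24 (0.00317). Those 2 genes were below without overlap, as were 11.9% of all genes. Hspa1a, at -2.52 ± 0.87, was too, which is no support because it passed the filter through pre-transplant libraries alone. It did not pass the test (adjusted p = 0.0767). It passed by DESeq2 (0.0293) and without both mouse 4 libraries (0.0465), but not without those and Selp low-derived replicate 2 (-2.21, edgeR adjusted p = 0.121). Hspa1b, at -0.78 ± 0.44, overlapped and did not pass (0.268). Hspd1 at 0.37 ± 0.14 did not pass (0.107), though it did without Selp low replicate 4 (0.0263) and without both mouse 4 libraries (0.0202). Hsp90aa1 at 0.41 ± 0.17 did not pass (0.131).

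Whether the stage change itself differed between inputs was tested as an interaction, in which 0 of 10 members and 0% of all genes were called by edgeR. At an unadjusted p under 0.05 there were 874 genes, and DESeq2 called 12 and limma voom 0. Among members Hsp90aa1 had the smallest p, with a difference of -0.61 ± 0.24 on the log2 scale (unadjusted p = 0.0240, adjusted p = 0.879). The difference was -1.12 ± 0.61 for Hspa1b, -0.57 ± 1.20 for Hspa1a, -0.47 ± 0.33 for Dnajb1 and -0.42 ± 0.59 for Hspb1, the last running from -1.12 without Selp high-derived replicate 1 to -0.0536 without Selp high-derived replicate 3. All of these intervals but that of Hsp90aa1 include 0, so an unequal fall between the inputs was not detectable.

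**Figure D4:**
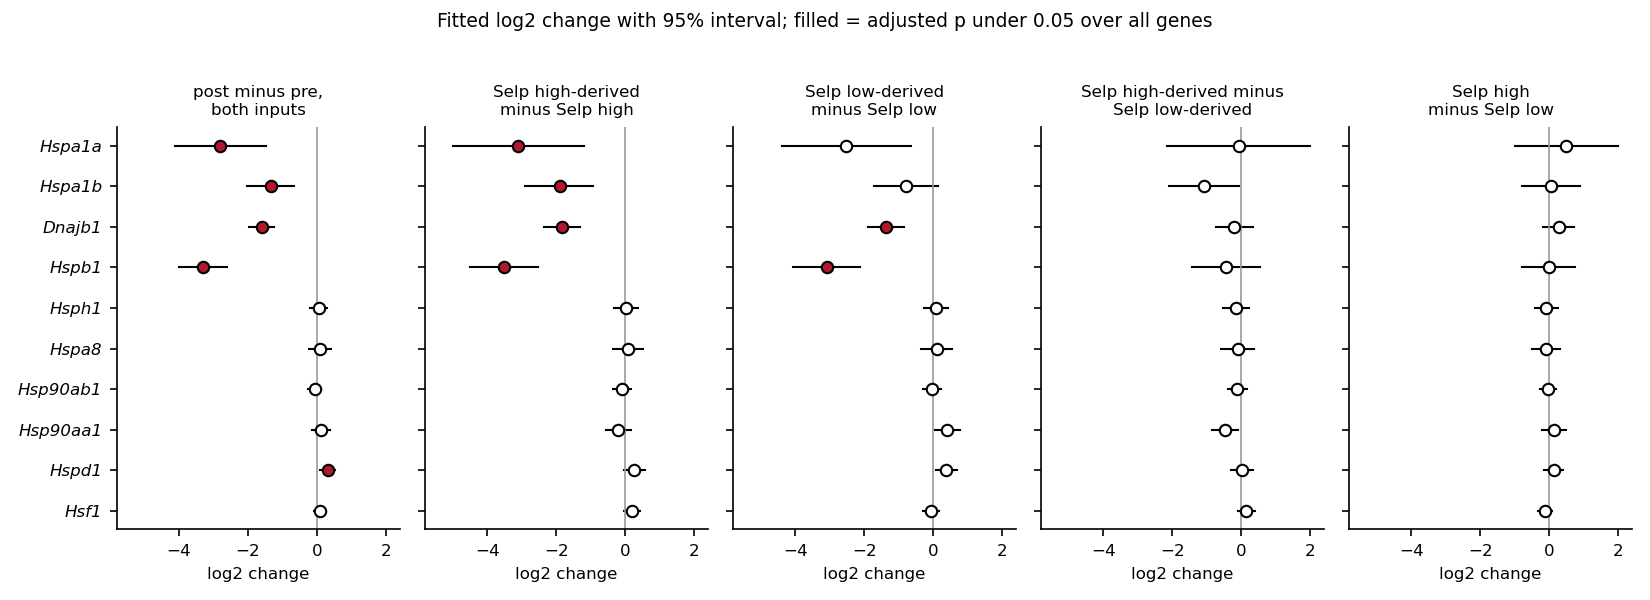
Fitted log2 change of each member (dot) with its 95% interval (line) in 5 comparisons, the zero line in grey and filled dots for edgeR adjusted p under 0.05 over all genes. The left panels, post- against pre-transplant, hold all 11 filled dots, and the right panels, by Selp, hold none. The filled dots of Hspa1a are no support, because it passed the filter through pre-transplant libraries alone.

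Before transplantation, no member passed the test between Selp high and Selp low cells. EdgeR called 0 of 10 members and 0% of all genes, 863 genes had an unadjusted p under 0.05, and DESeq2 called 11 genes and limma voom 0. No member was free of overlap between the groups, as 3.08% of all genes were. The largest fitted values were 0.50 ± 0.69 for Hspa1a and 0.27 ± 0.21 for Dnajb1 on the log2 scale (edgeR adjusted p = 0.978 and 0.961). Dnajb1 averaged 505 ± 183 CPM in Selp high libraries against 420 ± 59.4 CPM in Selp low ones (SD, n = 4 each), and the Selp high library was the higher one in 3 of 4 mice. Hspd1 averaged 196 ± 28.2 CPM in Selp high libraries against 179 ± 27.6 CPM in Selp low ones, and the Selp high library was higher in 4 of 4 mice, by 0.03 to 0.29 on the log2 scale. For Hsp90ab1 the 95% interval of -0.28 to 0.21 lay around a fitted value of -0.03.

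Levels often peaked in the same mouse in both sorts. Of the 10 members, 8 had the same mouse highest in both sorts, against 47% of all genes tested. Mouse 1 was highest for Hspa1a, Hspa1b, Hspa8, Hsp90ab1 and Hsph1 in both sorts. Hspa8 reached 1360 CPM in the Selp high and 1550 CPM in the Selp low library of that mouse, against 883 to 1040 CPM and 949 to 979 CPM in the other 3 mice. Mouse 3 was highest for Dnajb1 and Hsf1, and mouse 4 for Hspd1. The HSP70 genes and their co-chaperone Dnajb1 thus peaked in different animals. With only 4 mice, some peaks were near ties. Hsph1 had 137 CPM in mouse 1 and 136 CPM in mouse 3 (Selp low), and Hsf1 86.7 CPM in mouse 3 and 86.1 CPM in mouse 2 (Selp high).

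After transplantation, Selp high-derived and Selp low-derived cells had overlapping levels of most members. EdgeR called 0 of 10 members and 0% of all genes, with 765 genes at an unadjusted p under 0.05, 26 called by DESeq2 and 0 by limma voom. Hsp90aa1 and Hspa1b were lower in Selp high-derived cells with no overlap between the groups, as were 5.55% of all genes. Hsp90aa1 had 369, 314 and 352 CPM in Selp high-derived and 509, 532 and 388 CPM in Selp low-derived libraries, a difference of -0.47 ± 0.18 on the log2 scale (unadjusted p = 0.0223, adjusted p = 0.979). For Hspa1b the difference was -1.07 ± 0.47 (unadjusted p = 0.0405, adjusted p = 0.979), and neither gene passed. The Hspa1b difference was -0.63 without Selp low-derived replicate 3. Dnajb1 at -0.20 ± 0.25 and Hspb1 at -0.44 ± 0.47 overlapped, and the Hspb1 value ran from -1.14 without Selp high-derived replicate 1 to -0.073 without Selp high-derived replicate 3.

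Partner genes of these chaperones were compared across the same stages. The counts in each list, here and below, stand against the 27.4% of all genes called (12.9% higher and 14.6% lower). Because the lists, like the members, were chosen with earlier results of these data known, the counts are descriptions. They come from the edgeR fit that entered both pre-transplant libraries of a mouse separately. List genes were not examined with those libraries summed, where Hspd1 lost its call. Calls near the threshold, such as Cct4 (adjusted p = 0.0236), Hspa4 (0.0282) and Psma4 (0.0361), are therefore uncertain. Of 6 tested other HSP70 and HSP110 genes, 3 rose and 1 fell, with a median log2 change of 0.08, against -0.01 over all genes. Hspa14, a ribosome-associated HSP70, was at 105 ± 16.3 CPM after (SD, n = 6) and 67.2 ± 3.69 CPM before (SD, n = 8), and Hspa4, an HSP110 relative of Hsph1, at 269 ± 21.5 CPM after and 231 ± 13.2 CPM before. Hspa12a, which fell, was scarce at both stages, with 0.0986 ± 0.166 CPM after and 0.736 ± 0.733 CPM before, and like Hspa1a passed the filter through pre-transplant libraries alone. Of 11 other J-domain genes, 2 rose and 3 fell (median -0.05). Dnajb2, which hands clients to the proteasome, was at 48.7 ± 6.65 CPM after and 80.3 ± 7.78 CPM before, and Dnaja4 at 11.2 ± 1.93 CPM after and 19.7 ± 1.88 CPM before. Dnajc9, a histone chaperone, rose, with 164 ± 36.3 CPM after and 103 ± 7.23 CPM before. The most abundant of that list per length, Dnaja2, was at 311 ± 9.11 CPM after and 326 ± 32.8 CPM before and did not pass (adjusted p = 0.468).

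Among the small heat shock proteins, 2 of 3 tested genes fell as Hspb1 did, and the third did not pass. Hspb6 was at 11.6 ± 1.54 CPM after and 22.8 ± 5.48 CPM before (log2 change -0.99 ± 0.17, edgeR adjusted p = 0.000601), and Hspb8 at 5.57 ± 2.25 CPM after and 13.2 ± 3.46 CPM before (-1.26 ± 0.26, adjusted p = 0.00293). Of 10 HSP70 exchange factors and regulators, only Bag3 fell, at 27.4 ± 3.35 CPM after and 40.5 ± 6.44 CPM before (-0.57 ± 0.12, adjusted p = 0.00376). Bag3 is a known HSF1-inducible gene that couples HSP70 to Hspb8 in selective autophagy. None of 13 tested HSP90 co-chaperones passed, with Fkbp4 at 488 ± 71.0 CPM after and 472 ± 77.1 CPM before, and their median log2 change was 0.03.

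Of 4 tested HSF family and partner genes, Hsf4 fell, at 0.704 ± 0.255 CPM after and 2.33 ± 0.817 CPM before, and Hsf2bp rose, at 2.25 ± 1.07 CPM after and 0.817 ± 0.386 CPM before. The most abundant, Hsbp1, which binds HSF1 trimers, was at 193 ± 20.2 CPM after and 187 ± 25.8 CPM before and did not pass. Folding machines outside the HSP70 and HSP90 systems were compared as well. Of 8 subunits of the CCT/TRiC chaperonin, the cytosolic ring that folds actin and tubulin, 3 rose (Cct2 by 0.41, Tcp1 by 0.37 and Cct4 by 0.29 on the log2 scale) and 0 fell. Of 6 prefoldin subunits 0 passed. Of 10 mitochondrial chaperone and protease genes Hspe1 rose and Clpx fell (-0.37 ± 0.08), and of 14 subunits of the 20S proteasome Psma1 and Psma4 rose by 0.27 and 0.25.

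In the endoplasmic reticulum list 2 of 13 genes fell and 0 rose, close to the 14.6% of all genes that were lower. Hspa5, the HSP70 of that compartment (BiP), was at 1220 ± 146 CPM after and 1820 ± 465 CPM before (log2 change -0.58 ± 0.15, edgeR adjusted p = 0.00947). Dnajb9, one of its J-domain partners, was at 29.3 ± 3.16 CPM after and 64.3 ± 30.8 CPM before (-1.09 ± 0.21, adjusted p = 0.00139).

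**Figure D5:**
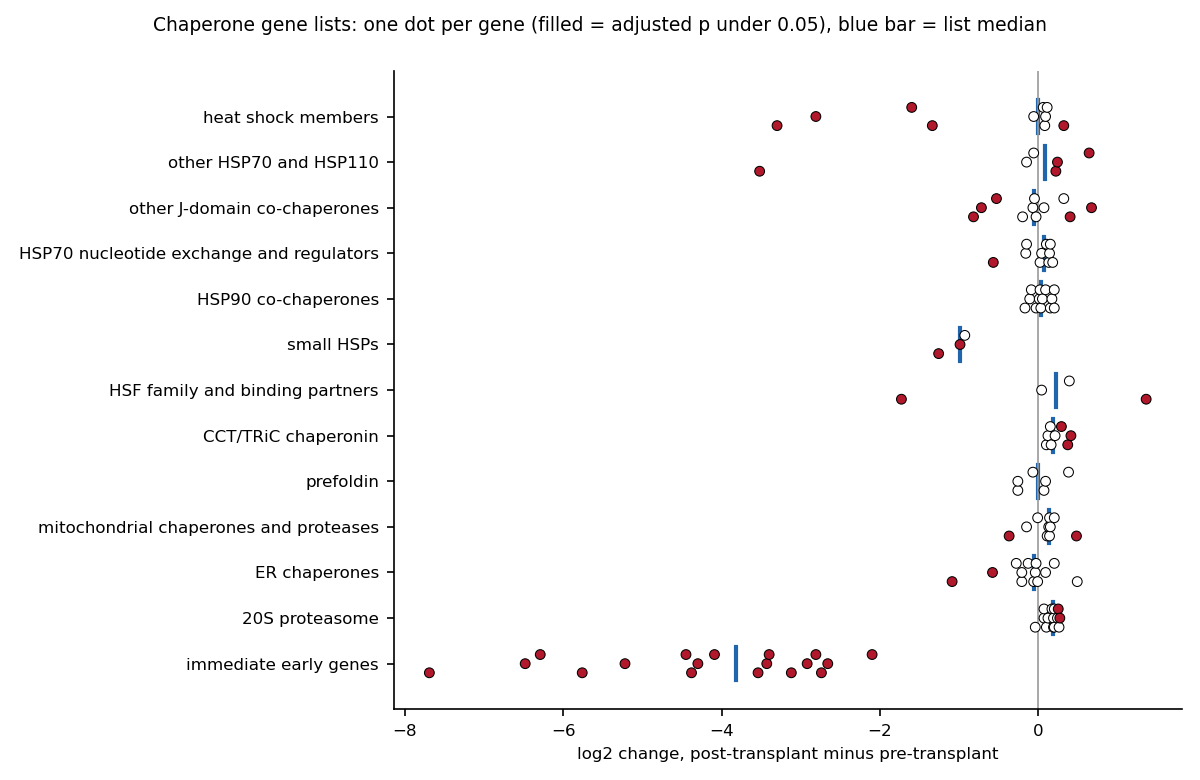
Log2 change after against before transplantation for each tested gene (dot) of the heat shock members and of 11 partner lists and the immediate early genes, with filled dots for edgeR adjusted p under 0.05 and a blue bar at the list median. Of the members, 4 genes lie between -3.30 and -1.34 and 6 genes between -0.06 and 0.32. Hspa1a, 1 of those 4, is no support, because it passed the filter through pre-transplant libraries alone. The 3 small heat shock genes all lie below 0, and the immediate early genes lie furthest down with a median of -3.82.

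Immediate early genes, which acute stimuli induce quickly, moved with the same stage contrast. All 18 immediate early genes were lower after transplantation, with a median log2 change of -3.82. Their summed level was 760 to 1790 CPM in Selp high-derived, 723 to 5250 CPM in Selp low-derived, 11600 to 27200 CPM in Selp high libraries and 18000 to 26000 CPM in Selp low libraries. Selp high replicate 3, with the most summed immediate early RNA at 27200 CPM, had the most Dnajb1 at 668 CPM, and Selp high replicate 2, with the least of the pre-transplant libraries at 11600 CPM, had the least Dnajb1 of them at 266 CPM. Other pre-transplant libraries did not keep that order: Selp low replicate 2 had 26000 CPM of immediate early RNA and 398 CPM of Dnajb1, and Selp high replicate 4 had 16800 CPM and 627 CPM. Selp low-derived replicate 2, with 5250 CPM, had 154 CPM of Dnajb1, among the other post-transplant values. The part of these genes in the fall of Dnajb1, Hspb1, Hspa1a and Hspa1b was not tested.

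Markers of other cell types were compared in the same way. The 12 neutrophil markers included none that passed, but all 12 had fitted values below 0 across stages, with a median log2 change of -1.25. Their summed levels were 421 to 2100 CPM in Selp high-derived, 1710 to 12500 CPM in Selp low-derived, 411 to 19800 CPM in Selp high libraries and 2160 to 15100 CPM in Selp low libraries. Without both mouse 4 libraries and Selp low-derived replicate 2, the log2 changes across stages were -3.45 for Hspb1, -2.81 for Hspa1a, -1.56 for Dnajb1 and -1.28 for Hspa1b, and Hspd1 was called with them. Of 8 platelet markers 3 rose and 2 fell. Pf4 averaged 75.1 ± 22.1 CPM after and 14.6 ± 9.94 CPM before, and Ppbp 8.14 ± 2.25 CPM after and 1.48 ± 0.524 CPM before. Itgb3, an integrin subunit not restricted to platelets, averaged 51.2 ± 10.9 CPM after and 331 ± 59.1 CPM before and carried the summed level, which was 291 to 394 CPM after and 479 to 767 CPM before. Of 12 LT-HSC markers 7 fell and 0 rose, with a median log2 change of -0.36, where 14.6% of all genes were lower. Erythroid, monocyte, B cell and mast cell lists held no called gene and the T cell list 1, Lck. T cell genes summed to 10.2 to 31.3 CPM, with Cd8a at 0 in 7 libraries and Cd3e in 3, and of the mast cell genes Cma1 and Tpsb2 were at 0 in 13 each. Leaving out the 3 libraries highest in neutrophil markers cannot show the part of neutrophil RNA, because the summed markers in the rest still ran from 411 to 5840 CPM. The part of all these cell types in the members' changes was not tested.

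For each member the protein-coding genes outside the group with the most similar log2 CPM were found, as a description. Over all 14 libraries Dnajb1 was most like Mcl1, an anti-apoptotic BCL2 relative (Pearson r = 0.99, 0.98 over the 8 pre-transplant and 0.34 over the 6 post-transplant libraries), then St3gal4 (0.97) and Clk4 (0.96). Hspb1 was most like Cavin2 (0.98, 0.77 before and 0.82 after), Fndc4 (0.98) and Ntf5 (0.97). The inducible HSP70s were most like Rbms2 (Hspa1a, 0.95) and Dok4 (Hspa1b, 0.92). Values over all 14 libraries include the difference between stages. Hsp90ab1 was most like Ndufa11, a subunit of respiratory complex I (r = 0.94, 0.98 before and 0.82 after), Hsp90aa1 like Cox6b2 and Rbx1 (0.93 and 0.92), Hspa8 like Ppp1r14b (0.94), Hspd1 like Uchl5 (0.97), Hsf1 like Oat (0.90) and Hsph1 like Sclt1 (0.82). The pre-transplant libraries come in pairs from 4 mice, so these points are not independent, and the values are descriptions only.

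Among the members themselves, the constitutive genes Hspa8 and Hsp90ab1 had r = 0.85 over the pre-transplant and 0.50 over the post-transplant libraries. Dnajb1 and Hspa1a had r = 0.73 over all 14 libraries but -0.04 within the pre-transplant and -0.14 within the post-transplant ones. Dnajb1 and Hspb1 likewise had r = 0.91 over all 14 libraries, 0.48 before and -0.10 after. Hspb1 and Hspa1a had r = 0.64 before and 0.59 after, the latter from libraries with 1 to 7 Hspa1a and 7 to 29 Hspb1 reads. For Hspb1 and Hspa1b the values were 0.52 before and 0.31 after.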

How the data were processed

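RNA was sequenced from 14 pools of 5000 sorted LT-HSCs, with cDNA from the SMART ultra-low input kit and Nextera XT libraries, per the labels. The authors deposited raw counts, whole reads per gene. Per the submitters' processing notes the tools were FastQC 0.11.9, STAR 2.7.0d and Picard 2.23.0 and the build was GRCm38, while annotation release and counting settings were not stated. Identifiers were given symbols from GENCODE release M 21. The column of counts that ignores strand was used, so reads in a stretch shared with an antisense gene were left out as ambiguous. Multimapping and unassigned reads stayed out of library sizes.

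Counts were scaled by TMM factors (0.963 to 1.042) and tested with edgeR 4.0.16 (R 4.3.3), by its quasi-likelihood test on 4 group means over 14 libraries (10 residual degrees of freedom). FilterByExpr with a minimum count of 10 left 16878 genes, and p-values were Benjamini-Hochberg adjusted over all of them, with calls at an adjusted p under 0.05. The biological coefficient of variation was 0.322. CPM uses TMM-scaled library sizes, log2 CPM a prior count of 2, and CPM per kb the union of a gene's exons. The fit was tested on simulated data.

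The members and gene lists were chosen with earlier results of these data known. All members are named; from each list, up to 3 called genes with the smallest p across stages and the most abundant per length; and for each member the 3 protein-coding genes with the highest r. Pre-transplant replicate numbers were taken as mice, because labels name 4 mice and same-numbered libraries deviated together over genes (r of 0.29 to 0.53, against -0.40 to 0.05 for other pairs). Alternatives were RLE factors, DESeq2 1.42.0, limma 3.58.1 voom, no filter, leaving out libraries, a mouse block, each stage alone, Hspa1a and Hspa1b summed, and, chosen after seeing the data, both libraries of a mouse summed.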

Additional observations from a re-analysis of the deposited data

Results flagged for a closer look

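In each pre-transplant group of 4 libraries the highest and lowest value of every member was set against the other 3 libraries. Of 20 groups, 3 held a library apart from the rest by Dixon's test at the 95% level, which by chance picks about 1 group in 20, and all 3 were in Selp low cells. Hspa1a was at 1.82 CPM in Selp low replicate 1, against 0.375 to 0.617 CPM in the other 3. Hspa8 was at 1550 CPM in the same library, against 949 to 979 CPM. Hsph1 was at 106 CPM in Selp low replicate 2, against 132 to 137 CPM. Groups of 3 libraries were not examined.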

How the results depend on the processing

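Across stages Hspb1 and Dnajb1 kept their direction and their call in every alternative run, for both inputs together and for each. Hspa1b kept its direction and call for both inputs together. Hspa1a did too, but it passed the filter through pre-transplant libraries alone, so keeping its call is no support. Exceptions by input and those of Hspd1 stand beside their values above. Member counts in this section are over all 10 members, Hspa1a included. Summing both pre-transplant libraries of a mouse, an alternative chosen after seeing the data, called 3443 of 16418 tested genes and 4 members across stages. The main fit called 4631 of 16878 genes and 5 members. In Selp low-derived against Selp low cells, 4 members and 2999 genes were called without both mouse 4 libraries, against 2 and 1936. Without Selp low-derived replicate 2 as well, 3 members and 2645 genes were called. Leaving out 1 library gave 803 to 2723 called genes there, and 1423 to 2488 genes and 2 to 4 members in Selp high-derived against Selp high cells. For the Selp comparisons, where edgeR called no gene, DESeq2 called 11 genes before transplantation, 26 after it and 12 for the interaction, and no filter called 1 before it. A replicate block within each stage called 2 genes before and 2 after transplantation and no member; after it the numbers did not pair libraries (r of -0.05 to 0.02), and Hspa1a gave no value there because it did not pass the filter.

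Values that changed sign all belong to changes that were not called, and the cause was not tested. Hspb1 between Selp high and Selp low was 0.0335 by voom and 0.0396 with the block. Hspd1 between Selp high-derived and Selp low-derived was -0.0842 without mouse 4 and Selp low-derived replicate 2. In the interaction Hspa8 was 0.00752 by voom and 0.0423 without mouse 4, and Hsp90ab1 0.0031 without mouse 4. Leaving out 1 library gave log2 ranges between Selp high and Selp low of -0.0961 to 1.21 for Hspa1a, -0.282 to 0.356 for Hspa1b, -0.237 to 0.115 for Hspa8, -0.0909 to 0.0555 for Hsp90ab1, -0.171 to 0.00654 for Hsph1 and -0.187 to 0.286 for Hspb1. Between the derived groups they were -0.865 to 0.378 for Hspa1a, -0.284 to 0.0676 for Hspa8 and -0.0851 to 0.131 for Hspd1. For the interaction they were -1.37 to 0.0235 for Hspa1a, -0.217 to 0.156 for Hspa8, -0.164 to 0.0118 for Hsp90ab1 and -0.235 to 0.0444 for Hsph1. Across stages Hsph1 ran from -0.0429 to 0.122, and from -0.16 to 0.12 for the Selp high input. For the Selp low input the ranges were -0.0706 to 0.303 for Hspa8, -0.108 to 0.0684 for Hsp90ab1, -0.000583 to 0.216 for Hsph1 and -0.14 to 0.00381 for Hsf1.

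Depth and the reads left out in the stretch shared with Gm20481 limit Hspa1a. Its post-transplant libraries hold 1 to 7 counted reads each, so that its fold and its split by input are the least precise of the members. Depth also limits Hspb1, with 7 to 29 counted reads in each post-transplant library.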
